A study of Mus musculus with 4 samples.

Results

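Integrins are cell surface receptors made of 1 α and 1 β subunit, and laminins are secreted α, β and γ chain trimers that form the basement membrane sheet under an epithelium. The genes described here are the integrin subunits and laminin chains on a single-colour Agilent mouse array, taken by the gene name printed in the scanner files (Itga or Itgb with a number or letter, and Lama, Lamb or Lamc with a number). The rule found 37 genes with 49 probes, of 31829 gene names and 39429 probes in all: 18 α subunits, 9 β subunits and 10 laminin chains. A gene's value is that of its brightest probe over the 4 arrays. Lamb1, which encodes the β1 chain, carries an older name in the files, was not among the 37 genes, and is given separately where a trimer needs it.

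The RNA came from mouse mammary tumour cells of MMTV-Neu mice, which carry the Neu oncogene (Her2, or Erbb2) under the mouse mammary tumour virus promoter, active mainly in mammary epithelium. The labels give 2 samples as Pak1-/- and 2 as Pak1+/+. Pak1 encodes a kinase that acts downstream of the Rac and Cdc42 GTPases. All 4 samples carry the Neu transgene, grew in low calcium medium with horse serum, and were serum starved for 3 h and given EGF for 15 min before RNA was taken. The series design gives a different tumour for each sample of a group, and the study's methods call the cells cell lines, so that 2 tumours stand for each genotype. The age and strain of the mice are not given in the labels.

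The arrays resembled each other technically. Median spot intensity was 322 to 331, median local background was 39.0 to 42.0, and 62.2% to 70.4% of probes were well above background, with the lowest share on the array labelled Pak1+/+ replicate 2. Across probes, r was at least 0.997 within a group and 0.954 to 0.959 between groups. All 4 arrays lay on 1 slide, where each genotype took neighbouring places, and so place on the slide and genotype cannot be told apart. The Pak1 probe had normalized log2 intensities of 12.21 and 12.25 where the label is Pak1-/-, against 12.04 and 12.04 where it is Pak1+/+. It was thus not lower where the label says that the gene is deleted (log2 fold change 0.19, SE 0.07, adjusted p = 0.070). Whether this probe lies in the deleted part of Pak1 is not given in the sources used here. Every direction below is therefore one between arrays as labelled, always the arrays labelled Pak1-/- relative to those labelled Pak1+/+.

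Integrins tie matrix outside the cell to actin or keratin filaments inside it, and the α and β subunits together decide what is bound. In the mammary gland, luminal and basal (myoepithelial) cells rest on a laminin-rich basement membrane. Laminin-332, which holds the α3 and β3 chains (Lama3, Lamb3), is the epithelial laminin bound by α6β4 and α3β1. α6β4 anchors the hemidesmosome, the junction that fixes keratin filaments to the basement membrane, whereas β1 and αV integrins join focal adhesions. The αV integrins bind RGD motifs in fibronectin, vitronectin and other ligands, and αVβ6 and αVβ8 are known for activating latent TGF-β. The β2 and β7 integrins are known mainly from leukocytes.

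Probes are shown for the members on which the results mainly turn, so that it is clear which stretch of each transcript was measured. The first 3 lie in the coding sequence of the cytoplasmic tail and are given whole, 5′ to 3′ along the transcript. Capitals in Itgb1 mark the codons of its 2 NPxY motifs, where talin and kindlin bind β subunits. Capitals in Itga2 mark the codons of GFFKR, the membrane-proximal motif of α subunits. The Itgb6 probe holds neither motif.
Itgb1: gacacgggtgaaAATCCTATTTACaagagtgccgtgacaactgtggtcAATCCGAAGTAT
Itgb6: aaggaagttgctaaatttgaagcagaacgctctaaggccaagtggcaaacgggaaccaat
Itga2: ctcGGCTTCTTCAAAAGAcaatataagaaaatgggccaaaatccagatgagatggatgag
These probes lie at chr8:131250081-131255976 on the plus strand, chr2:60438632-60443247 on the minus strand and chr13:115626714-115626773 on the minus strand (build mm9). The first 2 of these intervals are longer than the 60 bases of a probe because each of those probes spans a splice junction. Codons for an NPxY motif were found in 0.223% of the 39429 probes, and codons for GFFKR in 1 probe, that of Itga2. Ranks here are those of the main fit below, and with the processed signal Itga11 stood above Itgb5 and Lama3 above Lamb3. For the member that fell most, the member that rose most and the laminin chain that rose most, the first 30 of the 60 bases are given.
Itga9: taccttcagctttgtgtagccaaaaaagcc
Itgb5: gccagacaagaaggtatccggaagagtctg
Lamb3: tgtatgaacacaaaacccaataaaaatctt
These probes lie at chr9:118807900-118807959, chr16:33949123-33949182 and chr1:195167537-195167596, all on the plus strand.

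Of the 37 genes, 31 had a probe well above background on at least 2 arrays and were tested with limma across all 27229 such probes. Higher levels on the arrays labelled Pak1-/- were called for 18 genes and lower levels for 6, while 7 did not pass the threshold (adjusted p under 0.05). The called share was 77.4%, beside 51% of all 21961 genes tested. By direction it was 58.1% higher and 19.4% lower, beside 22.8% higher and 28.2% lower over all genes. A change of at least 2-fold was called upward for 7 of the 31 members tested and downward for 1 of the 31, beside 7% and 5.62% of all genes. The median log2 fold change of the tested members was 0.49 and that of all genes was -0.055. In 27 of the 31 genes both values of one group lay beyond both of the other, a share of 87.1% beside 77.6% of all genes. Of the 18 higher genes, 3 (Itga1, Itga11 and Lama2) had entered the test only through the arrays labelled Pak1-/-, so these shares and the median are a description of the genes that passed. Beside the brightest probes, 11 of the 37 genes had 12 further probes, of which 8 were tested and 7 had the sign and 7 the call of the brightest probe of their gene. With 2 samples against 2, an exact permutation test of a single gene cannot give a two-sided p below 0.333, and the calls rest on the spread shared across probes in the limma fit.

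**Figure D1:**
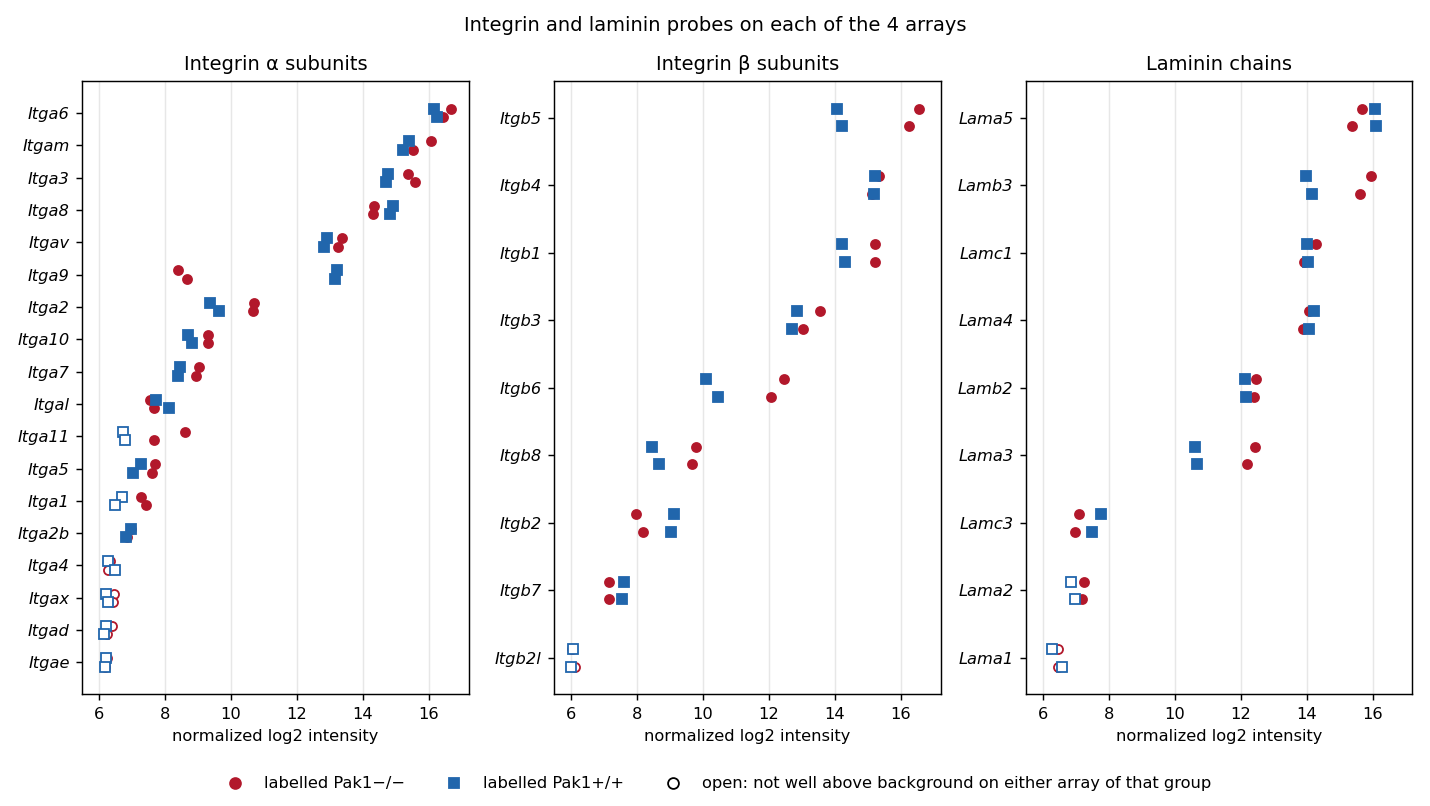
Normalized log2 intensity (horizontal axis) of the brightest probe of each gene described, with 1 point per array: circles for the 2 arrays labelled Pak1-/-, squares for the 2 labelled Pak1+/+, and open marks where neither array of a group was well above background. Itga9 stands far lower on the arrays labelled Pak1-/-, and Itgb5, Itgb6, Lama3 and Lamb3 stand higher. Rows are ordered by brightness only for reading, since levels of different probes are not comparable.

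The α3 and β3 chains of laminin-332 rose. Lama3, the α3 chain (chr18:12741067-12741126), read 12.44 and 12.18 under the label Pak1-/- against 10.60 and 10.66 under Pak1+/+, a 3.20-fold difference (log2 1.68, SE 0.11, adjusted p = 0.00064). Lamb3, the β3 chain, read 15.96 and 15.60 against 13.98 and 14.17, a 3.26-fold difference (log2 1.71, SE 0.15, adjusted p = 0.0013). For both chains, both arrays labelled Pak1-/- lay above both arrays labelled Pak1+/+, while the groups did not overlap for 77.6% of all genes. The second Lama3 probe gave a log2 fold change of 2.06 (SE 0.11) and was also called, as were 51.9% of all 27229 probes.

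The other laminin chains differed in direction and in call. Lama5, the α5 chain of laminin-511 and laminin-521 (chr2:179911079-179911138), read 15.66 and 15.38 against 16.07 and 16.10 and was called lower (log2 -0.57, SE 0.11, adjusted p = 0.014). Lamc1, the γ1 chain shared by most laminins, read 14.28 and 13.92 against 14.02 and 14.03, with overlapping groups (log2 0.08, 95% interval -0.27 to 0.43, adjusted p = 0.66). Lamb1 read 16.37 and 16.14 against 16.01 and 16.09 (log2 0.21, SE 0.10, adjusted p = 0.17). Lama4, the α4 chain known from vessel walls, also did not pass (log2 -0.16, interval -0.44 to 0.12, adjusted p = 0.27). Lamb2 was called higher at log2 0.29 (SE 0.07, adjusted p = 0.026) and Lamc3 lower at log2 -0.59 (SE 0.11, adjusted p = 0.013). Lama2, the α2 chain known from muscle, was not well above background on either array labelled Pak1+/+, and was at least 1.22-fold higher (adjusted p = 0.025). Several of these smaller calls were lost with 1 sample left out: Lama5 without Pak1+/+ replicate 2 (adjusted p = 0.054), Lamc3 without Pak1-/- replicate 2 (adjusted p = 0.068), Lamb2 without Pak1-/- replicate 1 or either Pak1+/+ replicate (adjusted p from 0.079 to 0.12), and Lama2 without any one of the 4 samples (adjusted p from 0.058 to 0.13). No array had Lama1 well above background.

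Among the receptors for laminin, the α3, α7 and β1 subunits rose and β4 did not pass. Itga3 (chr11:94906334-94906393), which pairs with β1, read 15.36 and 15.58 against 14.75 and 14.71, a 1.67-fold difference (log2 0.74, SE 0.10, adjusted p = 0.0040). Itgb1, the partner of most α subunits listed here, read 15.22 and 15.22 against 14.23 and 14.30, a 1.95-fold difference (log2 0.96, SE 0.07, adjusted p = 0.00082), and its second probe gave 1.34 (SE 0.11). Itga6 (chr2:71694756-71694815) read 16.68 and 16.43 against 16.16 and 16.23. Its groups did not overlap, as for 77.6% of all genes, but the call was narrow (log2 0.35, SE 0.11, adjusted p = 0.048). It was lost under 10 of 15 alternatives, and the log2 fold change ran from 0.17 to 0.48 over all 15. Leaving out Pak1-/- replicate 1 gave 0.23, Pak1+/+ replicate 1 gave 0.32 and Pak1+/+ replicate 2 gave 0.39, all without a call. Itgb4 (chr11:115869666-115869725), the subunit with the long tail that binds plectin, read 15.32 and 15.12 against 15.22 and 15.19. The 2 groups overlapped, and a difference beyond 0.26 on the log2 scale in either direction lay outside the interval (log2 0.01, interval -0.24 to 0.26, adjusted p = 0.92). Itga7, a laminin receptor known from muscle, was higher at log2 0.55 (SE 0.07, adjusted p = 0.0039).

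A list of 6 hemidesmosome partners gave 3 higher and 0 lower of 5 tested (median log2 0.50), beside 22.8% higher and 28.2% lower over all genes. Of the 3, Krt14 and Krt5 encode keratins, which attach to the junction, and both also stand in the list of basal markers below. Krt14, a basal keratin, read 15.93 and 15.89 against 13.05 and 13.10 (log2 2.83, SE 0.07, adjusted p = 7.7e-05). Cd151, a tetraspanin that associates with α3β1 and α6β4, read 16.76 and 16.80 against 15.90 and 16.17 (log2 0.74, SE 0.11, adjusted p = 0.0059). Krt5 was higher by 0.50 (SE 0.13, adjusted p = 0.028). That call was lost without Pak1-/- replicate 1 or Pak1+/+ replicate 1 (log2 0.39 and 0.38). It was also lost at adjusted p under 0.01, and with the processed signal scaled to the 75th percentile (log2 0.64, adjusted p = 0.058). The 2 plakins that link β4 to keratin did not pass: Plec stood at log2 0.11 (interval -0.15 to 0.36, adjusted p = 0.39) and Dst at 0.08 (interval -0.27 to 0.43, adjusted p = 0.64). Col17a1, the transmembrane collagen of the hemidesmosome, was not well above background on any array, with values from 6.19 to 6.63.

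Of the 4 β subunits other than β1 that pair with αV, 3 were called higher, beside 22.8% of all genes, and Itgb5 and Itgb6 had the largest increases among the integrins that were detected on all 4 arrays. Itgb5, whose αVβ5 receptor binds vitronectin, read 16.55 and 16.23 against 14.07 and 14.23, a 4.72-fold difference (log2 2.24, SE 0.13, adjusted p = 0.00050). Itgb6, the epithelial partner of αV, read 12.47 and 12.08 against 10.10 and 10.46, a 3.99-fold difference (log2 2.00, SE 0.19, adjusted p = 0.0016). Itgb8 (chr12:120401278-120401337) read 9.80 and 9.67 against 8.47 and 8.66, a 2.25-fold difference (log2 1.17, SE 0.10, adjusted p = 0.0013). The groups did not overlap for any of the 3, as for 77.6% of all genes, and the second Itgb6 probe was also higher, by 1.64.

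Itgav itself (chr2:83646133-83646192) changed less, with 13.38 and 13.25 against 12.92 and 12.81 (log2 0.45, SE 0.08, adjusted p = 0.011). That call was lost without Pak1+/+ replicate 2 (adjusted p = 0.060). Its second probe gave 0.83 (adjusted p = 0.0086). Itgb3 read 13.54 and 13.05 against 12.84 and 12.69. Its groups did not overlap, as for 77.6% of all genes, but its brightest probe did not pass (log2 0.53, SE 0.18, adjusted p = 0.065). Its second probe was called higher (log2 0.48, adjusted p = 0.039). The brightest probe passed under 5 of 15 alternatives (adjusted p from 0.017 to 0.049). Without Pak1-/- replicate 2 it stood at 0.77 and passed (adjusted p = 0.017), and without Pak1-/- replicate 1 it stood at 0.28 (adjusted p = 0.12). Itga2b, the platelet partner of β3, read 6.98 and 6.86 against 6.97 and 6.82 (log2 0.03, interval -0.22 to 0.27, adjusted p = 0.83). Only 1 of the 2 arrays labelled Pak1+/+ was well above background for Itga2b.

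All 4 α subunits of the collagen-binding integrins, which pair with β1, were called higher, beside 22.8% of all genes, and 2 of them (Itga1 and Itga11) entered the test only through the arrays labelled Pak1-/-. Itga2, which is found on many epithelia, read 10.70 and 10.65 against 9.38 and 9.64, a 2.24-fold difference (log2 1.17, SE 0.11, adjusted p = 0.0016). Itga11, better known from fibroblasts, read 8.60 and 7.68 against 6.72 and 6.78. Neither array labelled Pak1+/+ was well above background there, so the difference is at least 2.39-fold (adjusted p = 0.020), and the call was lost without Pak1+/+ replicate 1 (adjusted p = 0.055). Itga1 read 7.26 and 7.43 against 6.69 and 6.49, likewise dim on both arrays labelled Pak1+/+, and was at least 1.39-fold higher (adjusted p = 0.0052). Itga10, known from cartilage, was higher at log2 0.55 (SE 0.08, adjusted p = 0.0049).

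**Figure D2:**
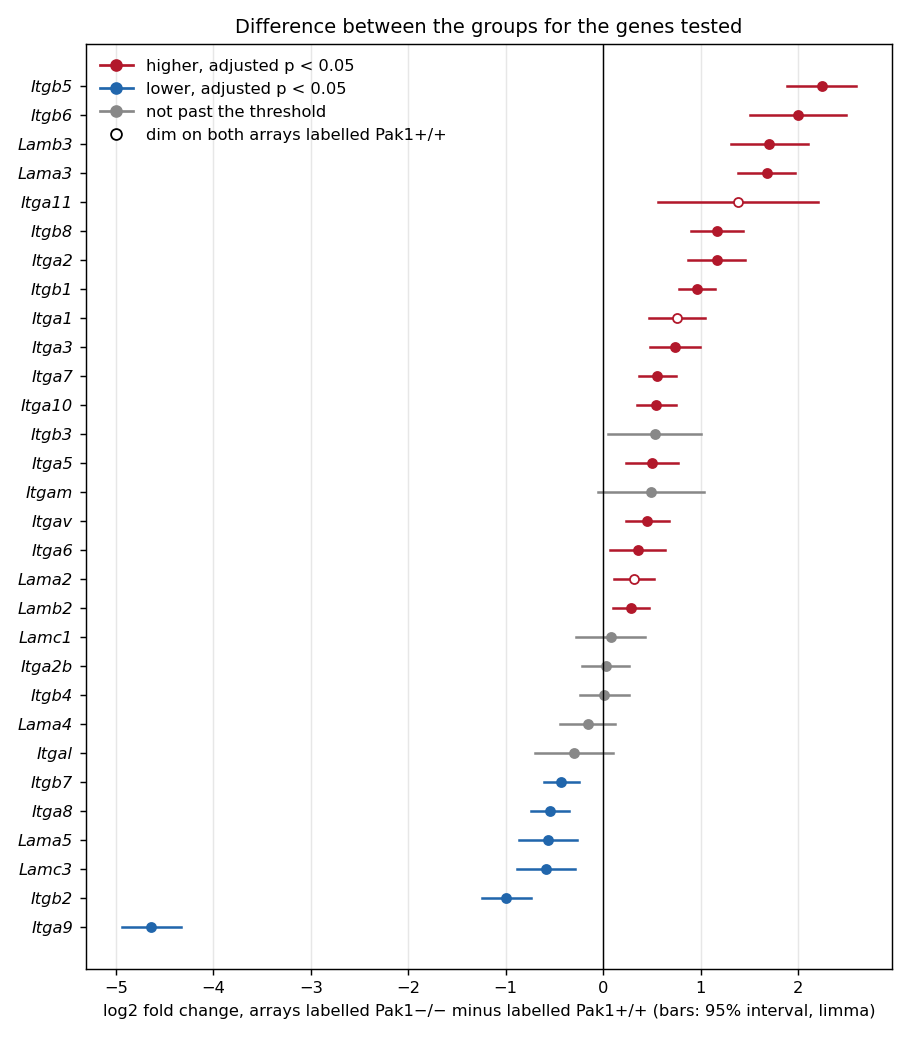
Log2 fold change (horizontal axis) of the tested genes described, arrays labelled Pak1-/- minus arrays labelled Pak1+/+, with bars for the unadjusted 95% interval from limma. Itga9 lies at -4.63, Itgb5 at 2.24 and Itgb6 at 2.00, and the remaining genes lie between -0.995 and 1.71.

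Itga9 had the largest change of any member, and in the main fit it was the only one called lower by at least 2-fold. It read 8.40 and 8.68 under the label Pak1-/- against 13.21 and 13.14 under Pak1+/+, which is 24.8-fold lower (log2 -4.63, SE 0.11, interval -4.93 to -4.34, adjusted p = 7.8e-05). All 4 arrays were well above background for it. α9β1 binds tenascin-C, osteopontin and other ligands. Itga8, whose α8β1 receptor binds nephronectin, was also lower, with 14.33 and 14.29 against 14.90 and 14.81 (log2 -0.55, SE 0.07, adjusted p = 0.0043). Their common partner Itgb1 rose, as given above, so that α8β1 and α9β1 were the pairs of β1 in which the subunits were called in opposite directions. Itga5, the α subunit of the main fibronectin receptor, stood at 7.69 and 7.61 against 7.26 and 7.04 (log2 0.50, SE 0.10, adjusted p = 0.015). Only 1 of the 2 arrays labelled Pak1+/+ was well above background for Itga5. Its call was lost without Pak1-/- replicate 1 or 2 (log2 0.46 and 0.54) or without Pak1+/+ replicate 2 (log2 0.39). No array had Itga4, a partner of both β1 and β7, well above background.

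Of the 6 genes of the leukocyte β2 group, 3 were tested, 0 were higher and 1 was lower, a share of 33.3% near the 28.2% lower over all genes. Itgb2, the β2 subunit common to 4 leukocyte receptors (chr10:77027978-77028037), read 7.98 and 8.18 against 9.12 and 9.03, and was 1.99-fold lower (log2 -0.995, SE 0.10, adjusted p = 0.0017). It was called lower by over 2-fold under some alternatives, among them the deposited table (log2 -1.01), normexp with offset 0 (log2 -1.15) and the processed signal (log2 -1.19). Itgb7 read 7.15 and 7.16 against 7.61 and 7.57 (log2 -0.43, SE 0.07, adjusted p = 0.0067), and Itgal read 7.56 and 7.68 against 7.72 and 8.11 (log2 -0.30, adjusted p = 0.17). Itgal passed at -0.49 without Pak1+/+ replicate 1 (adjusted p = 0.035) and stood at -0.099 without Pak1+/+ replicate 2 (adjusted p = 0.56). No array detected Itgad, Itgae, Itgax or Itgb2l above background. The brightest Itgam probe read 16.07 and 15.51 against 15.39 and 15.20 (log2 0.49, SE 0.21, adjusted p = 0.11), and passed at 0.77 without Pak1-/- replicate 2 (adjusted p = 0.022) but stood at 0.21 without Pak1-/- replicate 1 (adjusted p = 0.25). It holds 10 CA repeats in a row, while 32 of the 39429 probes (0.081%) hold at least 8, and the other Itgam probes did not share a direction (log2 -0.20, adjusted p = 0.21, and 0.56, adjusted p = 0.077).

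Leukocyte markers were measured on the same arrays. Of 15 markers, 8 were tested, 0 were higher and 5 (62.5%) were lower, beside 28.2% of all genes lower (median log2 -0.41), and Lyz2, Spi1, Tyrobp, Laptm5 and Cd53 were above background on no array. Ptprc (CD45), the defining one, read 7.15 and 7.14 against 7.59 and 7.60 (log2 -0.45, SE 0.07, adjusted p = 0.0056). The summed linear level of the list came to 53644 and 61121 under the label Pak1-/- against 174545 and 163790 under Pak1+/+. That difference lay in Cd14, which read 15.50 and 15.72 against 17.35 and 17.25. Without Cd14, a value added after the data were seen, the sums were 7446 and 7181 against 7157 and 7722, with overlapping groups. The part of any leukocytes in the values of Itgb2 and Itgb7 was not tested. In bulk RNA, fewer cells of a type and less RNA per cell cannot be told apart.

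Epithelial markers were detected in all samples. All 12 luminal markers were tested and Krt8 read 18.1 to 18.7 on the 4 arrays, while of 6 fibroblast genes 5 had a probe. Among these, Pdgfra read 8.29 and 8.13 against 8.42 and 8.32 and did not pass, Thy1 was above background on 1 array, and Pdgfrb, Dcn and Lum were above background on none. Cdh1 (E-cadherin) read 12.91 and 12.70 against 11.57 and 11.67 (log2 1.19, SE 0.10, adjusted p = 0.0012). Of the luminal markers 5 were higher, 1 was lower and 6 did not pass (41.7% and 8.33%, beside 22.8% higher and 28.2% lower over all genes). Of 12 basal markers, 11 were tested, 8 (72.7%) were higher and 0 were lower (median log2 1.13), beside the same 22.8% higher and 28.2% lower over all genes, and 1 of the 8 (Snai2) entered the test only through the arrays labelled Pak1-/-. Their summed linear level was 108871 and 99597 against 28520 and 27730. Basal markers thus moved in the direction of Lama3, Lamb3, Itgb1, Itgav, Itgb5, Itgb6 and Itgb8, and opposite to Itga8 and Itga9. The part of basal markers in those values was not tested. Of 9 platelet and endothelial markers, 6 were tested. Only Pf4 and Gp9 were called (33.3%, beside 22.8% of all genes higher), and both entered the test only through the arrays labelled Pak1-/-, where they were at least 1.83-fold and 1.98-fold higher (adjusted p = 0.00051 and 0.00032).

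**Figure D3:**
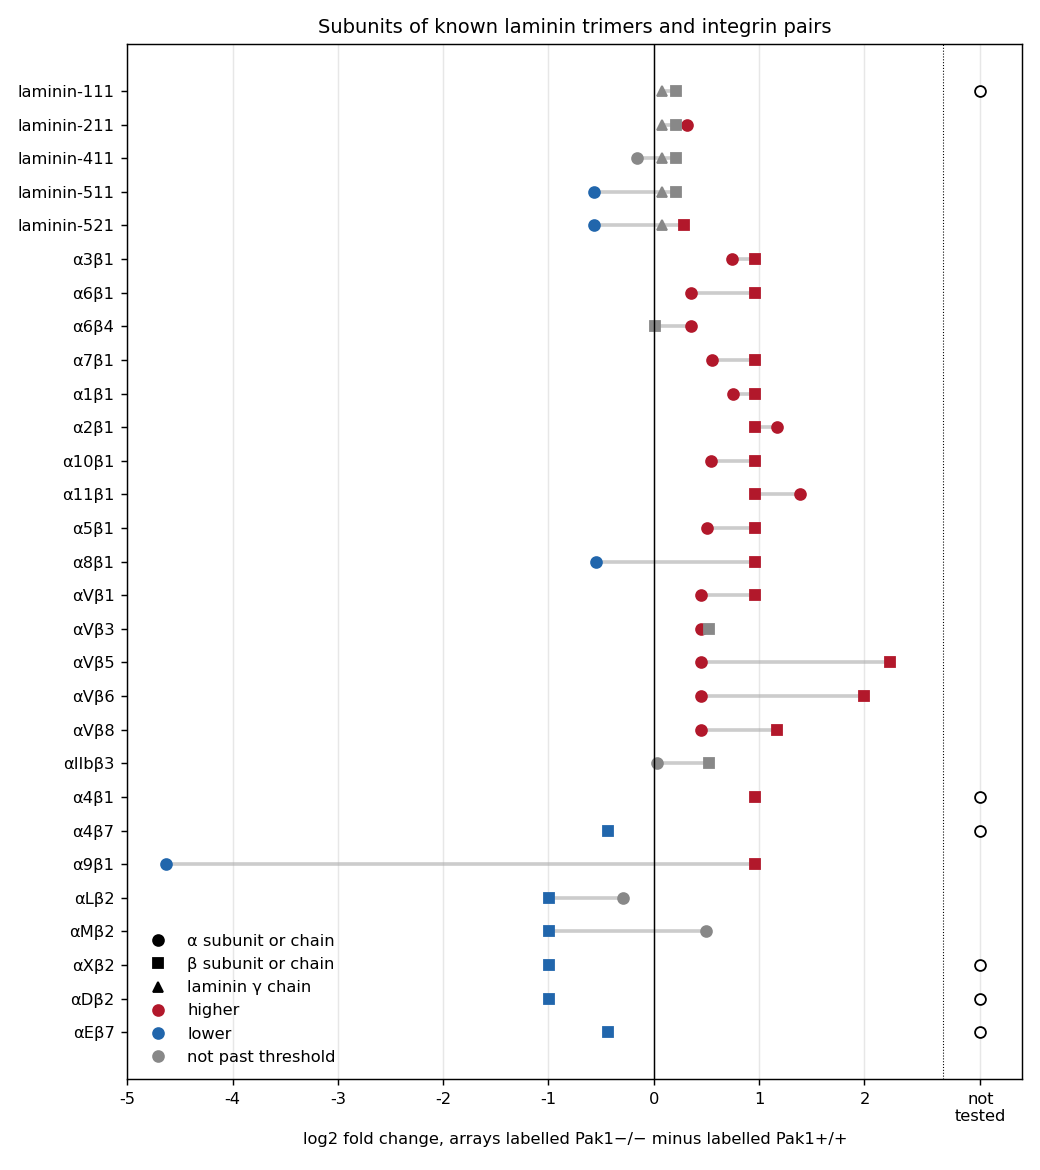
Log2 fold change (horizontal axis, arrays labelled Pak1-/- minus labelled Pak1+/+) of each subunit, arranged by the laminin trimer (laminin-332 is not drawn) or integrin pair it belongs to, so that a shared subunit such as Itgb1 recurs; Lamb1 stands for the laminin β1 chain, and subunits dim on the arrays stand apart at the right as not tested. Both subunits of αVβ5 and αVβ6 lie above 0, whereas α8β1 and α9β1 have 1 subunit on each side of it.

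Arranged as receptors, both subunits were called higher for α3β1, α6β1, α7β1, the 4 collagen-binding pairs, α5β1 and αVβ1, αVβ5, αVβ6 and αVβ8. These pairs share Itgb1 or Itgav and are not independent of each other, single genes were called higher in 22.8% of all genes tested, and the calls of Itga5, Itga6, Itga11 and Itgav were each lost under some alternative. In α6β4 and αVβ3 the α subunit was higher while the β subunit did not pass. Laminin-511 had a lower α5 chain beside β1 and γ1 chains that did not pass, and laminin-521 had a lower α5 chain beside a higher β2 chain.

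Other genes of the basement membrane, a list of 16 that also holds Lamb1, were higher or did not pass. Of 15 tested, 10 were higher and 0 were lower (66.7% and 0%, median log2 0.78), beside 22.8% and 28.2% of all genes. Without Lamb1, 10 of 14 were higher, with a median of 0.84. Sparc, a collagen-binding matricellular protein, read 12.45 and 11.99 against 8.77 and 9.03 (log2 3.32, SE 0.19, adjusted p = 0.00043). Col4a5, a collagen IV chain, rose by 2.53 (SE 0.14, adjusted p = 0.00042), and Hspg2 (perlecan) rose by 2.51 (SE 0.08, adjusted p = 0.00012), or by 1.70 when all its probes were averaged. Col7a1, which makes the anchoring fibrils that attach to laminin-332, read 14.48 and 13.84 against 11.76 and 11.88 (log2 2.34, SE 0.22, adjusted p = 0.0016). Nid2 was above background on no array.

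The non-laminin ligands of integrins, a list of 27 genes, moved both ways: 12 were higher, 4 were lower and 4 did not pass of 20 tested (median log2 1.04), and 7 were above background on no array. The shares were 60% higher and 20% lower, against 22.8% and 28.2% of all genes. Of the 20, 3 (Postn, Icam1 and Fga) entered the test only through the arrays labelled Pak1-/-, so these counts describe the genes that passed. Fn1, the fibronectin bound by α5β1 and αV integrins, read 17.11 and 16.24 against 9.92 and 10.21, a 97.7-fold difference (log2 6.61, SE 0.31, adjusted p = 0.00027). Postn (periostin), a ligand of αV integrins, read 10.84 and 9.66 against 6.31 and 6.22, was dim on both arrays labelled Pak1+/+, and was at least 10.4-fold higher (adjusted p = 0.0018). That bound was 6.91-fold without Pak1-/- replicate 1 and 15.7-fold without Pak1-/- replicate 2.

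The ligands of the α subunits that fell did not all go one way. Npnt (nephronectin), the ligand of α8β1, read 10.29 and 10.42 against 13.39 and 13.16 and was 7.56-fold lower (log2 -2.92, SE 0.11, adjusted p = 0.00017). Tnc (tenascin-C), a ligand of α9β1, read 11.31 and 9.97 against 6.93 and 8.76 (log2 2.79, SE 0.75, adjusted p = 0.033), with the call lost under 7 of 15 alternatives, among them leaving out either Pak1-/- replicate (log2 2.13 and 3.46) or Pak1+/+ replicate 1 (log2 1.88). Spp1 (osteopontin), also bound by α9β1 and named after its values were seen, read 14.16 and 14.82 against 17.03 and 16.76 and was lower (log2 -2.41, SE 0.24, adjusted p = 0.0019).

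Inside the cell, the adaptors and kinases of adhesions gave 15 higher, 7 lower and 13 that did not pass of 35 tested (median log2 0.21). The shares were 42.9% higher and 20% lower, beside 22.8% and 28.2% of all genes. Tln1, encoding the talin that binds the first NPxY motif of β tails, read 15.74 and 15.46 against 14.07 and 14.23 (log2 1.45, SE 0.12, adjusted p = 0.0012). The 3 genes with larger changes were lower. Tgfb1i1 (Hic-5), a relative of paxillin, read 6.80 and 6.82 against 10.71 and 10.64 (adjusted p = 4.7e-05). Only 1 of the 2 arrays labelled Pak1-/- was well above background for it, and the log2 difference ran from -3.83 to -5.38 over the alternatives, with -3.87 as tested. Cav1 (caveolin-1) fell by 1.99 on the log2 scale (SE 0.08, adjusted p = 0.00022), and Tns4, a tensin without an actin-binding region, fell by 1.65 (SE 0.15, adjusted p = 0.0016).

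**Figure D4:**
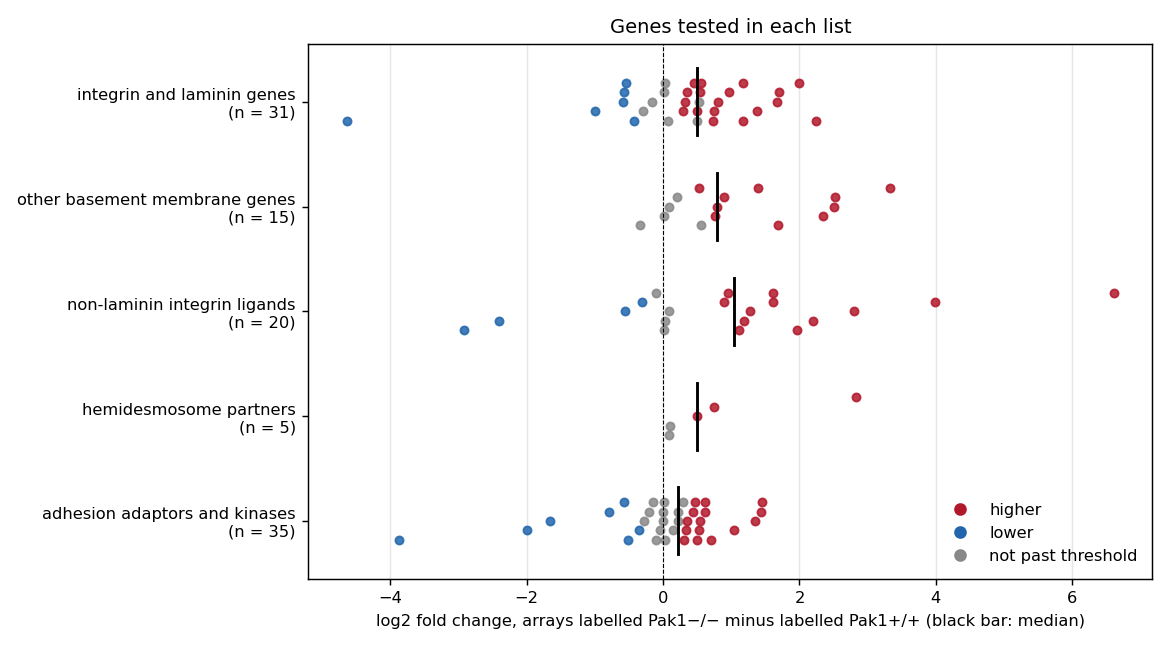
Log2 fold change (horizontal axis, arrays labelled Pak1-/- minus labelled Pak1+/+) of each tested gene in the 4 lists of integrin-related genes and in the integrins and laminins, with the median of each list marked. The medians are 0.50 for the hemidesmosome partners, 0.78 for the basement membrane, 1.04 for the non-laminin ligands and 0.21 for the adaptors and kinases.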

How the data were processed

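Total RNA of 4 mouse tumour cell samples was hybridised to single-colour arrays. The deposited scanner output gives, on a linear scale, the intensity of each spot as Feature Extraction 9.5.3.1 read it (probe positions on build mm9, also called NCBI37 in the headers): mean spot and median local background intensity, a processed intensity, and flags for saturated, outlier and well-above-background spots (the files' other columns used). These were not normalized between arrays. The authors also deposited log2 values of these arrays, normexp corrected and quantile normalized by their methods, which tracked the values computed here (lowest r across probes 0.9998) and served as an alternative.

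Background was corrected with normexp (offset 50) in limma 3.58.1 (R 4.3.3), and the 43020 non-control spots were quantile normalized after taking log2. Outlier spots were left out and spots of a probe averaged. A probe was kept when 2 or more of the 4 arrays had it well above background (27229 of 39429, 69.1%). Genotype was tested two-sided with lmFit and eBayes (2 residual and 2.62 prior degrees of freedom), and p was adjusted by Benjamini-Hochberg over all kept probes. Intervals are unadjusted. The number of arrays limits the precision. No member probe was saturated. Where a probe was dim in 1 group, the fold is a lower bound against the dimmest probe well above background on each array or the probe's own value, whichever was higher. The fit was tested on simulated data, of which no result is given here.

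The members and gene lists were chosen with earlier results of these data known. Per-array values were given for members called at 2-fold or more and for subunits of laminin-332, α6β4, α3β1, α2β1 and αV integrins, and in the lists for at most the 4 largest called changes plus fixed hemidesmosome partners and markers. Some other members and markers are given by array too. The values of 1 member are not reported here, though it stands in the counts over all members.

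Same-numbered samples were not paired by the labels, and their deviations correlated at -0.028 across probes. Alternatives were other background corrections, scalings, filters, thresholds and priors, the deposited table, a replicate block and leaving out each array.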

Additional observations from a re-analysis of the deposited data

How the results depend on the processing

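No called member changed sign under any alternative run. Of 24 called members, 16 kept the call under every alternative run for them, leaving aside the 2-fold rule given below. Itga5, Itga6, Itga11, Itgav, Lama2, Lama5, Lamb2 and Lamc3 lost it under some, and Itgal, Itgam and Itgb3 gained one under some; the cause was not tested. With the replicate block, 18 members were higher and 6 lower, and 39 list genes higher and 11 lower, against 18, 6, 40 and 11 without it. The equal member counts hide an exchange. In the limma fit with the block, Itga6 and Lamb2 lost the call (adjusted p = 0.064 and 0.054), while Itgam and Itgb3 gained it (adjusted p = 0.033 and 0.024). At adjusted p under 0.01, 12 members were higher and 4 lower, and 30 list genes were higher and 7 lower. The share of all genes at that threshold is not given here, so these counts show only how many calls were kept. Requiring 2-fold left 7 and 1 members and 21 and 5 list genes, a stricter rule by construction. Leaving out each sample in turn gave 13 to 18 members higher, 5 to 7 lower, and 31 to 38 list genes higher and 7 to 11 lower, the 7 coming without Pak1+/+ replicate 1.

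Genes near 0 changed sign. Scaling the processed signal to the 75th percentile gave -0.13 for Itga2b, -0.046 for Itgb4 and -0.049 for Plec, the same scaling after normexp gave -0.0065, -0.038 and -0.033, and the deposited table gave -0.042 for Itga2b. Leaving out a sample ranged from -0.047 to 0.10 for Itga2b, -0.089 to 0.11 for Itgb4, -0.099 to 0.25 for Lamc1 and -0.049 to 0.21 for Dst.

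With the processed signal, log2 fold changes grew to 2.04 for Itga1, 3.07 for Itga11, 0.88 for Itga5, 0.78 for Lama2, -0.88 for Itgb7, -1.15 for Lamc3, 6.71 for Postn, -5.38 for Tgfb1i1, -2.92 for Cav1, -2.27 for Tns4 and 3.56 for Tnc. With the same scaling after normexp they were 0.73, 1.37, 0.48, 0.29, -0.45, -0.61, 3.98, -3.88, -1.98, -1.64 and 2.82. Averaging all probes of a gene gave 1.70 for Hspg2 in place of 2.51. Of all called probes, 44.9% were higher, and 52.4% with cyclic loess.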
